A study of Homo sapiens with 6 samples.

Results

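Expression of 42 genes for histone methylation and chromatin remodelling enzymes was examined in ΔGLO1 HEK293T cells. HEK293T is a human embryonic kidney line, and GLO1 encodes glyoxalase 1, which clears methylglyoxal (MGO), a reactive dicarbonyl formed as a by-product of glycolysis. The genes were taken by symbol from the 63643 rows of the count table. They comprise 7 genes of the KMT2 and SETD1 family that acts on lysine 4 of histone H3 (H3K4), 6 other lysine methyltransferases, 7 lysine demethylases, 8 chromodomain helicases (CHD), 9 SWI/SNF subunits, and 5 genes of acetyltransferases and the remodeller EP400. MGO libraries came from ΔGLO1 cells given 60 µM MGO for 4 h (n = 3), and Control libraries from untreated ΔGLO1 cells (n = 3). The deletion is therefore carried by all 6 libraries. Whether the line is a single clone, and whether the replicates of a group were separate cultures, was not stated, so the p-values measure the spread between these libraries, which may be technical.

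Histone-modifying enzymes set and remove methyl and acetyl groups on histone tails, and proteins with matching reader domains bind the modified tails. Remodellers of the CHD and SWI/SNF families use ATP to slide, evict or exchange nucleosomes. Most of these proteins are large, work as subunits of complexes, and are encoded by long transcripts, and several come as pairs of close paralogues with shared partners.

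Poly(A)-selected RNA was sequenced from both groups. The libraries held 128270160, 138680220 and 138554431 counted reads for the MGO replicates in order of number, and 117427883, 157639431 and 146453569 for the Control replicates. Replicate 1 stood apart in both groups. The chi-square per degree of freedom between libraries was 45.7 and 50.4 for the pairs with MGO replicate 1 and 15.4 for the other MGO pair, and 28.1 and 21.3 for the pairs with Control replicate 1 and 3.51 for the other Control pair. MGO replicate 1 was the highest MGO library for 37 of the 41 enzyme genes tested, and Control replicate 1 the lowest Control library for 35 of 41. Mitochondrially encoded genes took 12.6%, 13.4% and 14.7% of the counts in the MGO libraries and 5.55%, 5.32% and 5.37% in the Control libraries. GLO1 itself read 106, 102 and 97.3 CPM, the count per 1e6 counts of the scaled library, with MGO and 37.6, 36.3 and 37.9 CPM in Control; where the deletion lies was not used here, so this checks no label. All 8 marker genes of the HEK293 line reached 1 CPM in some library, with NEFM, LHX1 and PAX2 low. Their sum was 1955 to 2202 CPM in MGO and 896 to 950.3 CPM in Control, but they did not move together. The 3 highest, KRT8, VIM and KRT18, were raised (log2 fold changes of 1.58, 0.89 and 1.87). PAX2 (-1.94), NEFM (-1.39), NEFL (-0.94) and INA (-0.46) were lowered, and LHX1 did not pass an adjusted p of 0.05 by edgeR. Of the markers of other cell types, 0 of 6 for blood, 2 of 6 for fibroblasts (COL1A1 and LUM) and 1 of 4 for endothelium (KDR) reached 1 CPM. Their sums were 0.445 to 0.809 CPM in MGO and 0.175 to 0.301 CPM in Control for blood, 5.23 to 5.78 CPM in MGO and 14.2 to 15.4 CPM in Control for fibroblasts, and 0.292 to 0.491 CPM in MGO and 1.05 to 1.31 CPM in Control for endothelium. The part of these differences in the results below was not tested.

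Most of the chromatin enzyme genes were lower after MGO. Of the 41 tested, 32 were lowered and 8 were raised at an adjusted p under 0.05 (edgeR quasi-likelihood test, Benjamini-Hochberg adjustment over 23109 genes). Across all genes tested, 40.5% were lowered and 38.8% raised. The share of lowered genes among the enzymes was thus above that of all genes tested, and the share of raised genes below it. Most of the enzymes have long transcripts, with 10 at 6 to 8 kb and 21 over 8 kb. In these classes 80.6% and 85.3% of all genes tested were lowered, so little particular to the enzymes is read from this count. Their median log2 fold change was -1.16, against -0.02 over all genes tested. A log2 fold change of -1 or below was reached by 21 of the 41 (25.8% of all genes tested), and one of 1 or above by 3 (20.9% of all genes tested). The MGO libraries all lay below the Control libraries for 31 enzyme genes and all above them for 8, and over all genes tested these shares were 41.8% and 39.7%. The groups overlapped for KDM3A and SETD1B. Without MGO replicate 1 the counts were 8 raised and 32 lowered with a median of -1.16, and without Control replicate 1 they were 7 and 32 with a median of -1.19. Fewer cells expressing a gene and less RNA per cell cannot be told apart in these bulk libraries. The 42 genes together took 0.275%, 0.217% and 0.227% of the counts in the MGO libraries and 0.602%, 0.681% and 0.666% in the Control libraries.

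**Figure D1:**
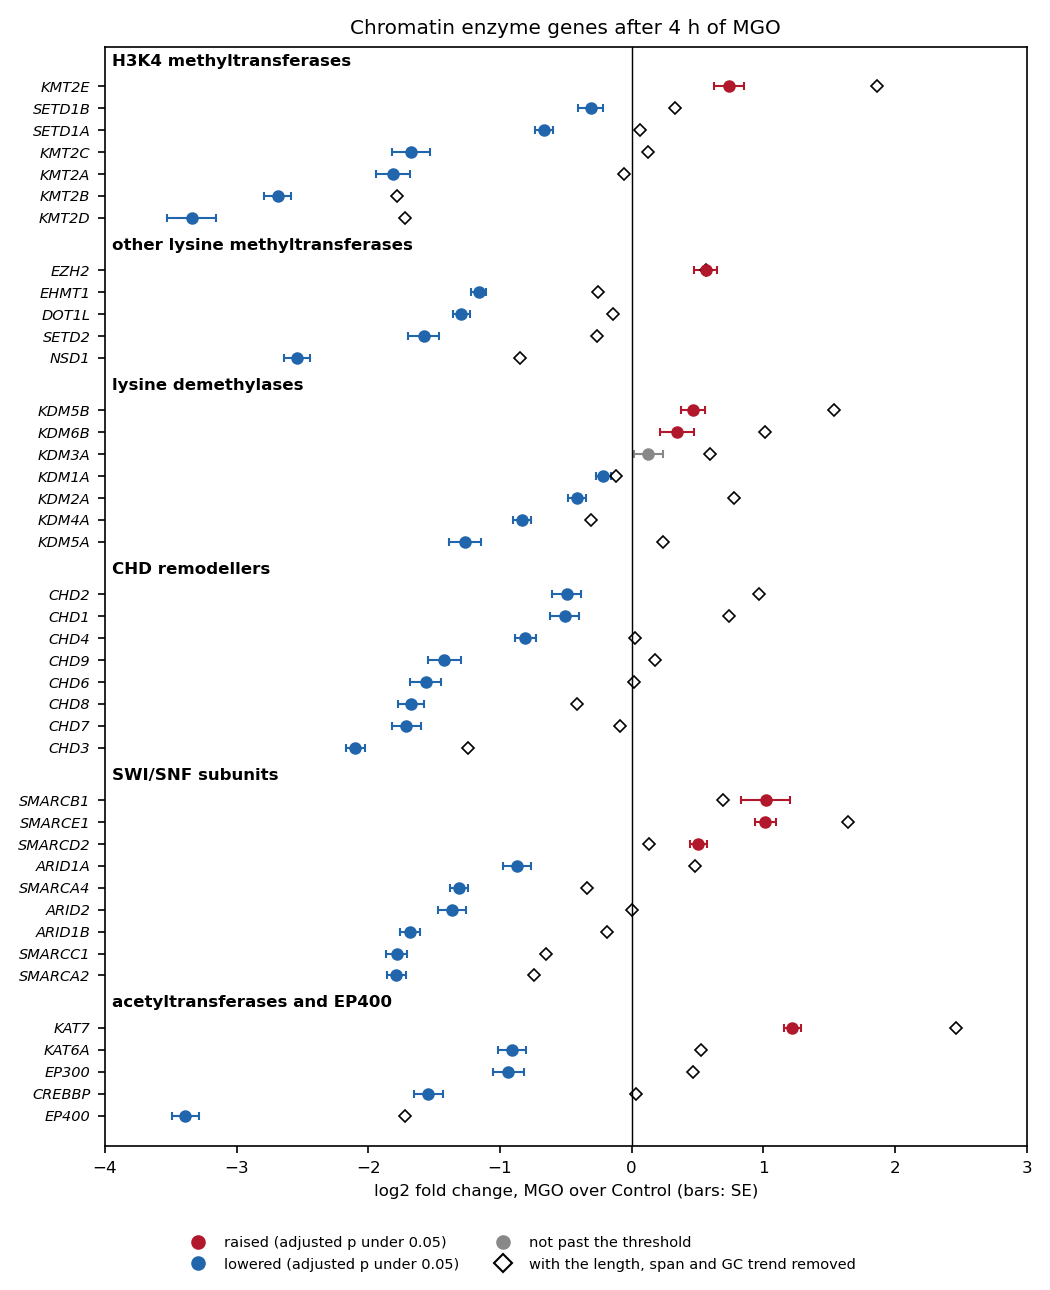
Log2 fold change, MGO over Control, of the 41 chromatin enzyme genes tested, ordered by role; filled points with bars give the estimate and its SE, and open diamonds the estimate after removal of the trend on length, span and GC content. Of the filled points, 32 lie below 0 and are lowered, 8 are raised and KDM3A did not pass the threshold; under library size alone KDM5B, KDM6B and SMARCD2 lie just below 0.

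The direction of the smaller changes depended on how the libraries were scaled. Library size alone, without trimmed-mean scaling, moved the median of all genes by -0.52 (log2) and left 30.6% of all calls as raised, against 48.9% in the reported fit. Under it 3 of the 41 enzyme genes were raised and 33 lowered, beside 5673 raised and 12885 lowered of all 23109 genes tested. Upper quartile scaling moved the median by 0.17 and gave 54.9% raised calls. It raised 9 enzyme genes and lowered 30, beside 10124 raised and 8312 lowered of all genes tested. The values that follow are on the trimmed-mean scale.

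Levels per length of transcript, in CPM per kb, placed the demethylase KDM1A and the SWI/SNF subunit SMARCD2 among the most abundant of these RNAs. SMARCD2 averaged 69.7 ± 4.25 CPM per kb with MGO and 49.1 ± 0.52 in Control, and KDM1A averaged 67.5 ± 2.05 with MGO and 78.4 ± 1.22 in Control (SD, n = 3 each). The ATPase gene SMARCA4 was second in the Control order at 57.0 ± 1.90 CPM per kb, and averaged 22.98 ± 1.52 with MGO. The lowest with MGO, apart from SMARCB1 and EHMT2, was EP400, which averaged 1.15 ± 0.13 CPM per kb with MGO and 12.1 ± 1.32 in Control. Transcript lengths here are those of the annotated transcript with the longest coding sequence.

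Promoter sequence from RefSeq (GRCh38.p14) was available for 35 of the 42 genes, as windows from 250 bases before to 50 bases after each annotated start. The windows of the 3 genes with the largest rises (KAT7, SMARCB1 and SMARCE1) and the 3 with the largest falls (EP400, KMT2D and KMT2B) are given 5′ to 3′ on the gene's strand, since these genes bound the range of the response. Capitals mark matches on either strand, and overlapping matches run together. The GC box was searched as GGGCGG and the CCAAT box as its name is spelled. The CRE core was TGACGT. The AP-1 site was TGANTCA, with any base at N. The E-box was CACGTG. The ETS site was CCGGAAG. The windows are KAT7 at chr17:49788431-49788730 (plus strand), SMARCB1 at chr22:23786716-23787015 (plus), SMARCE1 at chr17:40647769-40648068 (minus), EP400 at chr12:131949692-131949991 (plus), KMT2D at chr12:49060745-49061044 (minus) and KMT2B at chr19:35717753-35718052 (plus).
KAT7: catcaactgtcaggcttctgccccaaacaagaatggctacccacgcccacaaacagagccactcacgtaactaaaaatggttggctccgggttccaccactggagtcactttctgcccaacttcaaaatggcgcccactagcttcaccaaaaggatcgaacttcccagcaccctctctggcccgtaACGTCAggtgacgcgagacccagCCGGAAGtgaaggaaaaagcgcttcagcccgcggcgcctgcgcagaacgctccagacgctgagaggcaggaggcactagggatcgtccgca
SMARCB1: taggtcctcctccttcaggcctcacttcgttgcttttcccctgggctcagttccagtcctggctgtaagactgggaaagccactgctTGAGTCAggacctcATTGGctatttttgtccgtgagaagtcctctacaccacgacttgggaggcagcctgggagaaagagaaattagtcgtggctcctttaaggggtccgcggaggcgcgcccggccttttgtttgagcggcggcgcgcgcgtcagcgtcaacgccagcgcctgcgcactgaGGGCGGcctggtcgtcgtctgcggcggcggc
SMARCE1: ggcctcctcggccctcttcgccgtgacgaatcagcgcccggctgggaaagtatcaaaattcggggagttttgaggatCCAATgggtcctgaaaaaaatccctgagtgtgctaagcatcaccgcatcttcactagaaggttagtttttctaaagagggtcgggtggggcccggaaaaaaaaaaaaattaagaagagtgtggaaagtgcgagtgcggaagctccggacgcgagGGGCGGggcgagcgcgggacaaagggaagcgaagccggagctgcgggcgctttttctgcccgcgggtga
EP400: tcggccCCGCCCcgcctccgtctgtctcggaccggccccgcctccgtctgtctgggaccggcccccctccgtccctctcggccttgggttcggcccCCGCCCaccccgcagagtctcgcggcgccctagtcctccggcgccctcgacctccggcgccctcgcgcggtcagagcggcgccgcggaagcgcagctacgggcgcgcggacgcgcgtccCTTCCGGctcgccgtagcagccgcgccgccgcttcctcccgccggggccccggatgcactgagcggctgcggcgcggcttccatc
KMT2D: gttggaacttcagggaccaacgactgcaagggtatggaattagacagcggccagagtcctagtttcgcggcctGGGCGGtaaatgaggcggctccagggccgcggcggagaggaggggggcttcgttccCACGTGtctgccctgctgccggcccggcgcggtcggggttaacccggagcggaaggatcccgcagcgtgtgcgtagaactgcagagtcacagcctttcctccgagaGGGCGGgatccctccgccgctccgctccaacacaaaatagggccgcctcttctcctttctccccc
KMT2B: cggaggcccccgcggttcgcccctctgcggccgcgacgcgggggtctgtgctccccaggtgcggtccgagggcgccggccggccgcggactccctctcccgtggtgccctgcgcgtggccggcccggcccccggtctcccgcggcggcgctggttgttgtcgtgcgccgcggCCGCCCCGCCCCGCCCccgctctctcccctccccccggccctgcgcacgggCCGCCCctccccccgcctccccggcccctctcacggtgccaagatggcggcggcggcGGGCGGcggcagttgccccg

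The 3 windows of the lowered genes were GC-rich, with 79% G and C for EP400, 65% for KMT2D and 83.3% for KMT2B, and those of the raised genes held 57.7% for KAT7, 61.7% for SMARCB1 and 56.3% for SMARCE1. A GC box lay in each of the lowered windows, 2 in EP400, 2 in KMT2D and 5 in KMT2B, in SMARCB1 and SMARCE1 once each, and in KAT7 not at all. Over all windows of the enzyme genes, a GC box was present in 75% of the 12 windows of raised genes and 69.2% of the 39 windows of lowered genes, against 45% of all 35116 RefSeq windows. Median GC content was 66.0% in the windows of raised genes, 70.3% in those of lowered genes and 58.7% in all windows. The shares were 25%, 23.1% and 34.6% in the same order for the CCAAT box, 16.7%, 0% and 7.98% for the CRE core, 8.33%, 2.56% and 7.71% for the AP-1 site, 0%, 7.69% and 7.26% for the E-box, and 8.33%, 10.3% and 10.3% for the ETS site. Several windows belong to alternative starts of 1 gene, so the 12 windows stand for 8 genes and the 39 for 25. A match is a run of letters, not a measured site of binding.

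Genes of the H3K4 methyltransferases fell, with the exception of KMT2E. Of the 7, 6 were lowered and 1 was raised, with a median log2 fold change of -1.67, where 40.5% of all genes tested were lowered and 38.8% raised. Their transcripts measure 5969 to 19419 nt. Of all genes tested 65.9% were lowered at 4 to 6 kb, 80.6% at 6 to 8 kb and 85.3% over 8 kb. Little particular to this group is therefore read from the count of falls. With the trend of each library on length, span and GC content removed (the open diamonds in the plot of fold changes), 2 were raised and 2 lowered, with a median of 0.064. In that fit 38.5% of all genes were raised and 40.4% lowered. KMT2A to KMT2D (the MLL proteins) and SETD1A and SETD1B are the catalytic subunits of the COMPASS and MLL complexes, which methylate H3K4 at promoters and enhancers. KMT2E has a divergent SET domain and binds methylated H3K4 through its PHD finger.

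KMT2D, which acts mainly at enhancers, read 37.9, 22.97 and 25.9 CPM in the MGO libraries and 227, 329.7 and 322 CPM in the Control libraries. Every MGO library was far below every Control library, and replicate 1 was the MGO library nearest to Control. The means were 28.9 ± 7.91 CPM with MGO and 293 ± 57.0 CPM in Control (SD, n = 3 each), a 10.1-fold lower level with a log2 fold change of -3.34 (SE 0.19, adjusted p = 4.75e-09 by edgeR). KMT2B, its relative that works mostly at promoters, read 46.4, 34.0 and 36.9 CPM with MGO and 248, 260.3 and 249 CPM in Control. It was 6.45-fold lower after MGO (log2 fold change -2.69, SE 0.10, adjusted p = 2.53e-10 by edgeR). KMT2E went the other way, at 141, 101 and 105 CPM with MGO against 62.4, 73.0 and 72.0 CPM in Control. Its groups did not overlap, and its log2 fold change was 0.74 (SE 0.11, adjusted p = 6.73e-05 by edgeR); with library size alone it was 0.22 and no longer called. SETD1B read 63.0, 50.2 and 54.7 CPM with MGO and 62.2, 74.7 and 71.4 CPM in Control. MGO replicate 1 lay above Control replicate 1, and the fall was small (log2 fold change -0.31, SE 0.09, adjusted p = 0.00758 by edgeR), with the call lost under upper quartile scaling at -0.14. KMT2A, the founding MLL gene, and KMT2C, which like KMT2D acts mainly at enhancers, had log2 fold changes of -1.81 and -1.67, and SETD1A of -0.67. KMT2A shares 17.9% of its exon bases with other genes annotated on the same strand, so its count is uncertain to that extent.

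The other lysine methyltransferases split between EZH2, which rose, and 4 genes that fell, where 40.5% of all genes tested were lowered and 38.8% raised. By length class, 65.9% of all genes tested were lowered at 4 to 6 kb (EHMT1), 80.6% at 6 to 8 kb (DOT1L) and 85.3% over 8 kb (SETD2 and NSD1). All 4 lowered genes were also lowered with the length trend removed, where 38.5% of all genes were raised and 40.4% lowered. With that trend taken on median transcript length DOT1L lost its call at -0.04 (adjusted p = 0.374 by edgeR). EZH2 is the catalytic subunit of Polycomb repressive complex 2 (PRC2), which methylates H3K27. EZH2 read 163, 131 and 131 CPM with MGO and 102, 93.0 and 93.2 CPM in Control. All MGO libraries were above all Control libraries, with a log2 fold change of 0.56 (SE 0.09, adjusted p = 6.7e-05 by edgeR), which was 0.04 and no longer called under library size alone. NSD1, which dimethylates H3K36, read 50.3, 42.5 and 45.9 CPM with MGO and 233, 288 and 287 CPM in Control. It was 5.82-fold lower after MGO (log2 fold change -2.54, SE 0.10, adjusted p = 2.28e-10 by edgeR). SETD2, which trimethylates H3K36 in transcribed gene bodies, read 43.3, 30.2 and 32.5 CPM with MGO and 95.8, 111 and 110.3 CPM in Control (log2 fold change -1.58, SE 0.12, adjusted p = 7.67e-08 by edgeR). EHMT1, which methylates H3K9, read 45.7, 46.1 and 45.2 CPM with MGO and 99.0, 105 and 103 CPM in Control, with little spread in either group (log2 fold change -1.16, SE 0.06, adjusted p = 1.99e-09 by edgeR). DOT1L, the H3K79 methyltransferase, had a log2 fold change of -1.29. EHMT2, the partner of EHMT1, was listed at 0 in all 6 libraries, where a count of 0 allows at most 0.0273 CPM in the library of smallest scaled size by counting error alone. The related genes KAT6B and SIRT2 had 3 and 6 counts over all libraries, so a listing at or near 0 is not read here as absence of the RNA.

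The demethylases were the least lowered group. Of 7, 4 were lowered, 2 were raised and 1 did not pass, with a median log2 fold change of -0.22, where 40.5% of all genes tested were lowered and 38.8% raised. With the length trend removed 5 were raised and 2 lowered, with a median of 0.59, where 38.5% of all genes were raised and 40.4% lowered. KDM5B and KDM5A both remove methyl groups from H3K4. KDM5B read 224, 177 and 177 CPM with MGO and 130.1, 143 and 145 CPM in Control, without overlap (log2 fold change 0.47, SE 0.09, adjusted p = 0.000516 by edgeR), and turned to -0.06 under library size alone. KDM5A read 65.9, 48.1 and 50.7 CPM with MGO and 113, 141 and 142 CPM in Control (log2 fold change -1.27, SE 0.12, adjusted p = 6.91e-07 by edgeR). The paralogues moved in opposite directions on the trimmed-mean scale, but with the length trend removed both were raised, KDM5A at 0.24 and KDM5B at 1.54. KDM6B, which demethylates H3K27, read 67.7, 44.4 and 46.9 CPM with MGO and 39.5, 44.3 and 41.4 CPM in Control. MGO replicate 1 was well above the other libraries, while MGO replicate 2 lay just above the highest Control library. Its log2 fold change of 0.34 (SE 0.13, adjusted p = 0.0277 by edgeR) was 0.13 without MGO replicate 1 (adjusted p = 0.0462 by edgeR), turned to -0.18 under library size alone, and was not called without Control replicate 1 (adjusted p = 0.104 by edgeR) or Control replicate 3 (adjusted p = 0.0584 by edgeR). KDM3A, an H3K9 demethylase, read 98.9, 72.7 and 70.4 CPM with MGO and 71.0, 74.7 and 75.7 CPM in Control. The groups overlapped and the log2 fold change was 0.13 (SE 0.11, adjusted p = 0.297 by edgeR); without MGO replicate 1 it was -0.04. KDM3A was lowered under library size alone (-0.39) and raised under upper quartile scaling (0.30). KDM4A, which acts on H3K9 and H3K36, read 24.8, 24.5 and 22.2 CPM with MGO and 40.9, 41.8 and 44.6 CPM in Control (log2 fold change -0.83, SE 0.07, adjusted p = 2.34e-07 by edgeR), and shares 40.2% of its exon bases with other genes on the same strand. KDM2A, an H3K36 demethylase, had a log2 fold change of -0.41, and KDM1A, a demethylase of H3K4 and H3K9, of -0.22. Under upper quartile scaling KDM1A lost its call at -0.04.

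**Figure D2:**
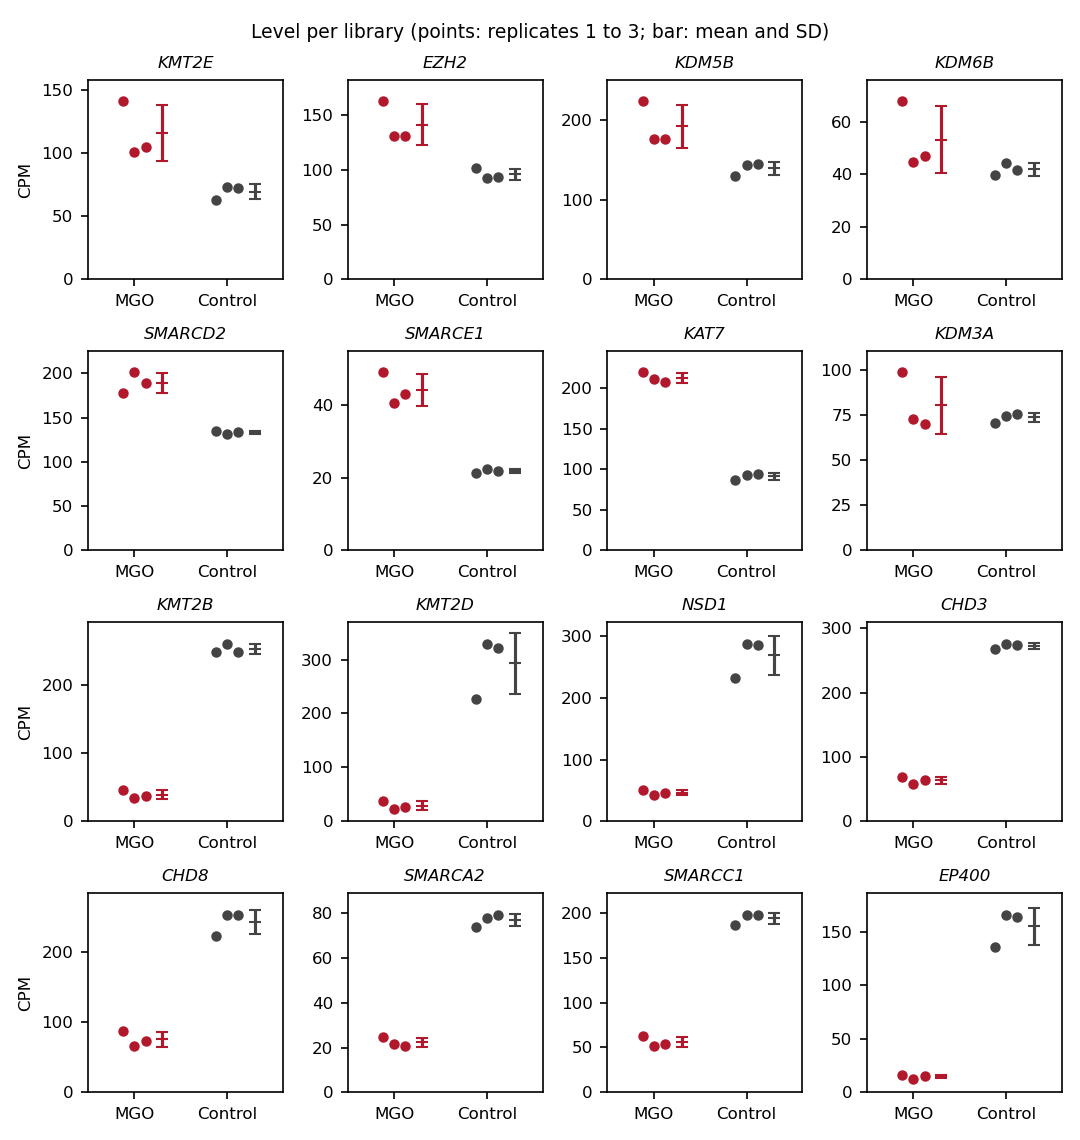
Level of 16 chromatin enzyme genes in each library in CPM, with MGO replicates 1 to 3 left of Control replicates 1 to 3; points are libraries and the bar beside them gives the mean and SD. The MGO points lie above the Control points in the first 7 panels and below them in the last 8, and the groups overlap for KDM3A; under library size alone KDM5B, KDM6B and SMARCD2 have a fold change just below 0.

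All 8 CHD remodeller genes were lowered, with a median log2 fold change of -1.49 and a range from -2.10 for CHD3 to -0.49 for CHD2. Over all genes tested 40.5% were lowered. Among genes of like length the lowered share was 80.6% at 6 to 8 kb and 85.3% over 8 kb, so little particular to the CHD genes is read from this count. With the length trend removed 3 were raised and 2 lowered, with a median of 0.020, where 38.5% of all genes were raised and 40.4% lowered. CHD3 and CHD4 are alternative ATPases of the NuRD complex, which couples remodelling to histone deacetylation. CHD3 read 68.7, 58.6 and 63.4 CPM with MGO and 268, 276 and 273 CPM in Control. The spread in each group was small beside the difference, which was 4.29-fold (log2 fold change -2.10, SE 0.07, adjusted p = 1.16e-10 by edgeR). CHD4 had a log2 fold change of -0.81 and a count that is uncertain, since 46.9% of its exon bases lie in other genes of the same strand. CHD7, which is mutated in CHARGE syndrome, read 26.9, 19.1 and 21.6 CPM with MGO and 66.5, 78.9 and 75.8 CPM in Control (log2 fold change -1.71, SE 0.11, adjusted p = 2.31e-08 by edgeR). CHD8, a close relative of CHD7, had a log2 fold change of -1.68, CHD6 of -1.56 and CHD9 of -1.42. CHD1, a reader of methylated H3K4 that travels with elongating polymerase, read 108, 76.5 and 82.3 CPM with MGO and 118, 132 and 129.5 CPM in Control. CHD2, its paralogue, read 122, 88.2 and 93.1 CPM with MGO and 129, 147 and 151 CPM in Control. For both genes MGO replicate 1 came close to Control replicate 1 without overlap. Their log2 fold changes were -0.51 (SE 0.11, adjusted p = 0.00106 by edgeR) for CHD1 and -0.49 (SE 0.11, adjusted p = 0.00131 by edgeR) for CHD2, and 10.2% of the CHD2 exon bases are shared with another gene.

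The SWI/SNF subunits moved in both directions, as did all genes tested, of which 40.5% were lowered and 38.8% raised. The 2 ATPase genes, the 3 ARID genes and SMARCC1 were lowered, and SMARCB1, SMARCD2 and SMARCE1 were raised, with a median over the 9 of -1.31. The rise of SMARCB1 rests on 292 counts in all. With the length trend removed 4 were raised and 4 lowered, where 38.5% of all genes were raised and 40.4% lowered. SMARCA2, which encodes the ATPase BRM, read 24.5, 21.4 and 20.9 CPM with MGO and 73.8, 77.6 and 79.2 CPM in Control. It was 3.45-fold lower (log2 fold change -1.79, SE 0.07, adjusted p = 4.57e-10 by edgeR). SMARCA4, which encodes the alternative ATPase BRG1, had a log2 fold change of -1.31. SMARCC1, a scaffold around which the complex assembles, read 62.9, 51.6 and 54.1 CPM with MGO and 186, 197 and 198 CPM in Control (log2 fold change -1.78, SE 0.08, adjusted p = 7.13e-10 by edgeR). The ARID proteins define the variants of the complex. ARID1A had a log2 fold change of -0.87, its alternative ARID1B of -1.68, and ARID2, of the PBAF variant, of -1.37.

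SMARCE1 read 49.0, 40.5 and 43.0 CPM with MGO and 21.3, 22.4 and 21.9 CPM in Control, a log2 fold change of 1.02 (SE 0.08, adjusted p = 8.66e-08 by edgeR). All MGO libraries were far above the Control libraries, and 19.8% of its exon bases are shared with other genes on the same strand. SMARCD2 had a log2 fold change of 0.51, which turned to -0.02 under library size alone. SMARCB1, a core subunit lost in rhabdoid tumours, read 0.509, 0.487 and 0.497 CPM with MGO and 0.253, 0.248 and 0.236 CPM in Control. These are 56, 55 and 57 counts with MGO against 36, 47 and 41 in Control, few for a gene that most cells use. Its log2 fold change of 1.02 (SE 0.18, adjusted p = 0.000254 by edgeR) therefore describes the counts listed, and whether they represent the gene's RNA was not tested.

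Among the acetyltransferases and EP400, KAT7 rose and the other 4 genes fell, where 40.5% of all genes tested were lowered and 38.8% raised. All 5 transcripts used are over 8 kb, where 85.3% of all genes tested were lowered and 7.39% raised. Little particular to this group is therefore read from the count of falls. With the length trend removed 3 were raised, 1 was lowered and CREBBP did not pass, where 38.5% of all genes were raised and 40.4% lowered. KAT7 (HBO1) acetylates histones H3 and H4 and is linked to replication origins and transcribed genes. KAT7 read 219.7, 212 and 207 CPM with MGO and 86.2, 93.1 and 94.6 CPM in Control. The lowest MGO library was more than 2-fold above the highest Control library, and the rise was 2.33-fold (log2 fold change 1.22, SE 0.06, adjusted p = 2.55e-09 by edgeR). EP400, the ATPase of the TIP60 complex that exchanges histone H2A variants, read 15.998, 12.9 and 15.5 CPM with MGO and 136, 166 and 164 CPM in Control. Its means were 14.8 ± 1.66 CPM with MGO and 155 ± 17.0 CPM in Control (SD, n = 3 each), a 10.5-fold lower level (log2 fold change -3.39, SE 0.10, adjusted p = 6.76e-11 by edgeR). CREBBP and EP300 are paralogous co-activators that acetylate H3K27 at enhancers. CREBBP read 72.4, 53.6 and 61.0 CPM with MGO and 160.0, 196 and 189 CPM in Control (log2 fold change -1.54, SE 0.11, adjusted p = 3.88e-08 by edgeR), and EP300 had a log2 fold change of -0.94. KAT6A, an acetyltransferase of the MOZ family, read 62.5, 49.98 and 51.6 CPM with MGO and 87.5, 110.1 and 110.4 CPM in Control, without overlap (log2 fold change -0.91, SE 0.10).

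The falls followed transcript length. The median transcript of the enzyme genes was 8095 nt and their median gene span 88.9 kb, against 2327 nt and 19.7 kb over all genes tested. Across all 21727 genes with a length, the median log2 fold change was 0.55 for transcripts under 2 kb, 0.04 at 2 to 4 kb, -0.69 at 4 to 6 kb, -1.25 at 6 to 8 kb and -1.65 over 8 kb. Over 8 kb, 85.3% of all genes tested were lowered and 7.39% raised. The enzyme genes in that class numbered 21, of which 20 were lowered, with a median of -1.56. At 6 to 8 kb, 80.6% of all genes tested were lowered and 10.9% raised, and of the 10 enzyme genes there 6 were lowered and 4 raised, namely KMT2E, KDM5B, KDM6B and SMARCE1, with a median of -0.54. At 4 to 6 kb the shares were 65.9% lowered and 18.7% raised, and of 6 enzyme genes 5 were lowered, 0 were raised and KDM3A did not pass. The other 4 enzyme genes were shorter than 4 kb. Within their own length class 24 enzyme genes lay above the class median and 17 below it. The Spearman correlation of log2 fold change with transcript length was -0.61 across the 41 enzyme genes and -0.37 across all genes, and with gene span -0.44 and -0.27; with the GC content of the transcript it was -0.11 and 0.12. These correlations run across genes that share the same 6 libraries and are descriptions.

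**Figure D3:**
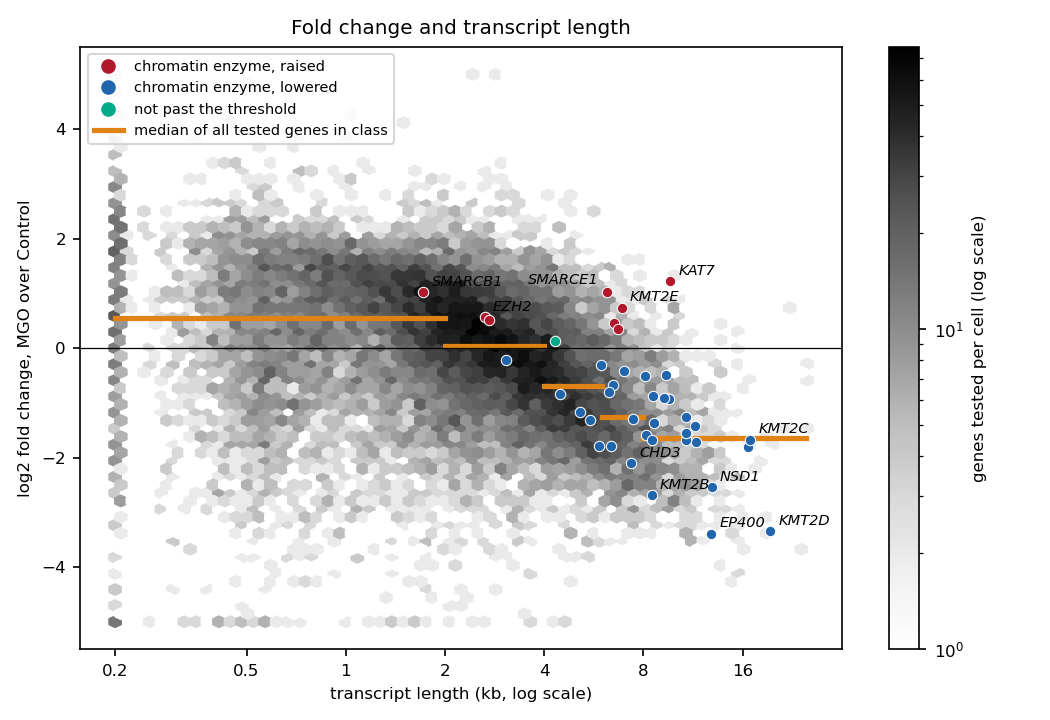
Log2 fold change, MGO over Control, against transcript length in kb on a log scale; grey hexagons count all genes tested, coloured points are the 41 chromatin enzyme genes, and orange lines mark the median of all genes in each length class. Values beyond the axis limits are drawn at the edge. The class medians step down from 0.55 under 2 kb to -1.65 over 8 kb, with KAT7 at 1.22 above the 95th percentile of its class (0.52), and EP400 and KMT2D at -3.39 and -3.34 below its median but above its 5th percentile (-3.43). KAT7 is placed by its 9644 nt transcript. Its median transcript of 2622 nt falls in the class of 2 to 4 kb, where the 95th percentile is 1.58.

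The MGO and Control libraries separated by length. The median log2 deviation from the gene's mean over all 6 libraries, for transcripts over 8 kb minus those under 2 kb, was -0.71, -0.92 and -0.87 in the MGO libraries and 0.72, 0.89 and 0.88 in the Control libraries. Replicate 1 had the smallest deviation in both groups. Because the mean is taken over both groups, their values mirror each other and do not show the pattern in either group alone. After a smooth trend on length, span and GC content was taken out of each library, the median over the enzyme genes was 0.04. Then 18 were raised, 15 lowered and 8 did not pass, while 38.5% of all genes were raised and 40.4% lowered. Of the 32 lowered genes, 15 were also lowered with the trend removed, 8 did not pass and 9 were raised. The 8 raised genes were all raised with the trend removed in this way. The removal also takes out any change of biological origin that runs with length, and how much of the trend is of either kind was not tested.

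With the trend removed, EP400 (-1.72), KMT2B (-1.78) and KMT2D (-1.72) still had the lowest values, followed by CHD3 (-1.24), NSD1 (-0.85), SMARCA2 (-0.74) and SMARCC1 (-0.65). KAT7 had the highest value at 2.46, followed by KMT2E (1.86), SMARCE1 (1.65), KDM5B (1.54) and KDM6B (1.01). KAT7 and SMARCE1 have shorter typical transcripts, with a median over annotated coding transcripts of 2622 and 2432 nt against the 9644 and 6196 nt used, so their distance from other long genes depends on which transcript is expressed. KMT2A, the 16628 nt transcript, had a value of -0.06 and was no longer called, and KMT2C, CHD6, CHD7, ARID2, CREBBP, CHD4 and SETD1A also lost the call. SETD1B, KDM2A, KDM5A, CHD1, CHD2, CHD9, ARID1A, EP300 and KAT6A, lowered before, were raised once the trend was removed, with values from 0.17 for CHD9 to 0.96 for CHD2, and KDM3A was raised at 0.59. CHD2, CHD6 and CHD7 depend on the transcript chosen as well. Their median transcripts are 2221, 2477 and 4777 nt against the 9363, 10818 and 11568 nt used. When the trend was removed on the median transcript length, CHD2 was lowered at -0.37, CHD6 at -1.31 and CHD7 at -0.69. KAT7 was raised at 1.24 and SMARCE1 at 0.73, and SMARCD2 lost its call at 0.018 (adjusted p = 0.712 by edgeR). The order changed as well. KDM5B (1.65) and KMT2E (1.64) then lay above KAT7, and SMARCA2 (-1.53) came near EP400 (-1.60). By role that removal gave 3 raised and 2 lowered among the H3K4 methyltransferases, 1 and 3 among the other lysine methyltransferases, 5 and 0 among the demethylases, 3 and 5 among the CHD genes, 3 and 4 among the SWI/SNF subunits, and 3 and 1 among the acetyltransferases and EP400. Over all 21727 genes with a length it gave 8362 raised and 8730 lowered.

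A ratio between paralogues within a library is free of the scaling of that library. Of 12 pairs, 11 could be compared, and 9 had log2 ratios that did not overlap between groups. Single genes were already without overlap in 41.8% (MGO below Control) and 39.7% (MGO above Control) of all genes tested, so nothing particular to the pairs is read from this count. In 7 of the 9 pairs the member with the longer transcript, as used here, was relatively lower after MGO, and in 2 it was relatively higher. This split depends on the transcript chosen. By median transcript length the longer member is SMARCA4 beside SMARCA2 (5587 and 2471 nt) and EP300 beside CREBBP (9587 and 9200.5 nt). In both of these pairs the longer member is then the relatively higher one. With 3 libraries a side the smallest p of the two-sided exact permutation test is 0.1, which adjusts to 0.122 over the 11 pairs, so none can pass 0.05. The log2 ratio of KMT2C to KMT2D was 0.44 ± 0.07 with MGO and -1.23 ± 0.06 in Control (SD, n = 3 each), a difference of 1.67. Their transcripts measure 16862 and 19419 nt. The ratio of KMT2A to KMT2B was 0.11 ± 0.04 with MGO and -0.77 ± 0.20 in Control, a difference of 0.88, with transcripts of 16628 and 8469 nt. KDM5A over KDM5B was -1.82 ± 0.06 with MGO and -0.09 ± 0.10 in Control, a difference of -1.73, with transcripts of 10763 and 6520 nt. CHD4 over CHD3 was -2.05 ± 0.06 with MGO and -3.34 ± 0.07 in Control, a difference of 1.29, with transcripts of 6291 and 7356 nt and the shared exon bases of CHD4 as a limit.

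Smaller differences were seen in the other pairs. ARID1B over ARID1A was -1.59 ± 0.16 with MGO and -0.78 ± 0.04 in Control, and EP300 over CREBBP was 0.98 ± 0.05 with MGO and 0.37 ± 0.04 in Control. SMARCA2 over SMARCA4 was -2.51 ± 0.22 with MGO and -2.03 ± 0.04 in Control, and SETD1B over SETD1A was -0.37 ± 0.06 with MGO and -0.72 ± 0.09 in Control. The differences of these 4 pairs were -0.80, 0.61, -0.48 and 0.36 on the log2 scale. Their transcripts measure 10813 and 8583 nt for ARID1B and ARID1A, 9587 and 10803 nt for EP300 and CREBBP, 5867 and 5512 nt for SMARCA2 and SMARCA4, and 5969 and 6451 nt for SETD1B and SETD1A. For CHD9 over CHD6 (11509 and 10818 nt) the difference was 0.14. The pairs CHD1 over CHD2 and CHD7 over CHD8 overlapped between groups, with differences of -0.02 (two-sided exact permutation p = 0.5) and -0.04 (two-sided exact permutation p = 0.4).

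**Figure D4:**
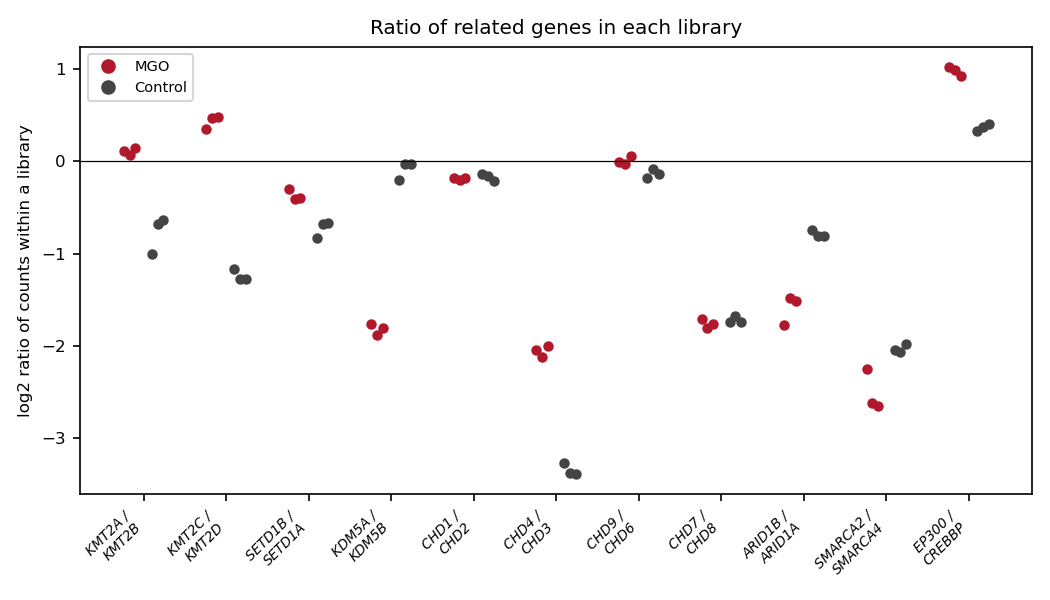
Log2 ratio of counts of 11 paralogue pairs in each library, MGO libraries beside Control libraries; points are libraries. The largest shifts are those of KDM5A over KDM5B, KMT2C over KMT2D and CHD4 over CHD3, and the groups overlap for CHD1 over CHD2 and CHD7 over CHD8.

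Genes that work with these enzymes moved in both directions. Over 10 lists of partners and related enzymes with 137 genes, 134 were tested, 50 were raised, 67 lowered and 17 did not pass, with a median log2 fold change of -0.18 and a median transcript of 3611 nt. Across all genes tested 38.8% were raised and 40.5% lowered; whether the related genes differ from the 42 enzyme genes was not tested. Under library size alone 26 of them were raised and 92 lowered. With the length trend removed 54 were raised and 57 lowered, with a median of -0.01, where 38.5% of all genes were raised and 40.4% lowered. Of 12 COMPASS and MLL partners 4 were raised and 7 lowered, and 1 was raised under library size alone. The shared small subunit DPY30 was at 1.15 (SE 0.07) and CXXC1, which binds unmethylated CpG DNA, at 0.46 (SE 0.07). With the length trend removed DPY30 was raised at 1.02, and CXXC1 did not pass at 0.11. The long scaffold gene HCFC1 averaged 72.7 ± 4.31 CPM with MGO and 341 ± 33.0 CPM in Control (SD, n = 3 each), a log2 fold change of -2.23, and the co-activator NCOA6 had -1.96. Of 9 PRC2 partners tested 6 were raised and 3 lowered, or 2 raised and 3 lowered under library size alone. EED, a core subunit beside EZH2, had a log2 fold change of 1.13 and PHF19 of 0.79, while the core subunit SUZ12 had -0.53 and the cofactor JARID2 -1.99. With the length trend removed EED (0.64), PHF19 (1.11) and JARID2 (-0.99) kept their calls, and SUZ12 did not pass at 0.06.

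Among 18 further lysine methyltransferases 6 were raised and 9 lowered, led by SMYD3 (1.28) and SETMAR (1.15) and by ASH1L (-2.26) and NSD2 (-1.45), the relative of NSD1. Under library size alone 3 of the 18 were raised. With the length trend removed SMYD3 (0.95), SETMAR (0.66), ASH1L (-0.64) and NSD2 (-0.18) kept their calls, and the falls were smaller. Among 14 further genes of the demethylase list 2 were raised and 9 lowered, and 1 was raised under library size alone. JMJD6, a JmjC protein with lysyl hydroxylase activity, averaged 211 ± 9.27 CPM with MGO and 45.4 ± 1.24 CPM in Control (SD, n = 3 each). Its log2 fold change of 2.22 (SE 0.06, adjusted p = 4.83e-11 by edgeR) exceeded that of every enzyme gene above. RIOX1 had a log2 fold change of 0.45, and KDM1B, a relative of KDM1A, and PHF2 had -1.94 and -1.87. With the length trend removed JMJD6 (2.61), RIOX1 (0.37), KDM1B (-1.88) and PHF2 (-0.91) kept their calls.

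Of 19 further SWI/SNF subunits 7 were raised and 11 lowered. PBRM1, which with ARID2 defines the PBAF variant, averaged 16.8 ± 1.65 CPM with MGO and 142 ± 12.2 CPM in Control (SD, n = 3 each), a log2 fold change of -3.08 (SE 0.09, adjusted p = 5.39e-11 by edgeR). BICRAL had -2.18, BCL7B 1.46, and ACTL6B 1.41 at under 1 CPM in both groups. With the length trend removed PBRM1 (-2.20), BICRAL (-1.06), BCL7B (0.84) and ACTL6B (0.74) kept their calls. Of 10 NuRD partners of CHD3 and CHD4 6 were raised and 3 lowered, or 2 raised and 6 lowered under library size alone, with MTA2 at 0.82, CDK2AP1 at 0.71, MTA1 at -0.64 and GATAD2B at -0.35. With the length trend removed MTA2 (0.60) and MTA1 (-0.66) kept their calls. CDK2AP1 then did not pass at 0.05, and GATAD2B turned to raised at 0.92. GATAD2B averaged only 1.61 CPM with MGO and 2.05 CPM in Control. Its median transcript is 2342 nt against the 7478 nt used, so its turn may depend on the transcript chosen. Of 17 ISWI, INO80 and other remodeller genes 4 were raised and 12 lowered. BPTF, the large subunit of the NURF complex, had a log2 fold change of -3.15 and ATRX of -2.91, against 1.51 for the histone-fold gene POLE3 and 1.187 for the AAA+ ATPase gene RUVBL2.

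TRRAP, the scaffold that EP400 shares with other acetyltransferase complexes, averaged 34.6 ± 4.34 CPM with MGO and 326 ± 42.6 CPM in Control (SD, n = 3 each). Its log2 fold change was -3.24 (SE 0.12, adjusted p = 1.59e-10 by edgeR), the lowest of the 15 tested genes in the list of further acetyltransferases and partners, of which 5 were raised and 7 lowered. KAT2B had -1.89. BRPF1, a scaffold of the KAT6A and KAT7 complexes, averaged 165 ± 9.53 CPM with MGO and 59.9 ± 2.69 CPM in Control, a log2 fold change of 1.47, and ING4, a subunit of KAT7 complexes, had 1.38. Among 12 tested histone deacetylases and sirtuins 7 were raised and 4 lowered, or 3 raised and 8 lowered under library size alone, with SIRT6 at 1.35, SIRT7 at 0.85, HDAC4 at -1.94 and HDAC10 at -2.15. Of 8 arginine methyltransferases 3 were raised and 2 lowered, or 2 raised and 5 lowered under library size alone, with PRMT1 at 1.47, PRMT5 at 1.02, PRMT6 at -0.38 and CARM1 at -0.28.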

How the data were processed

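The authors deposited 1 table of raw counts per gene for 6 libraries. Per the labels' protocols, polyA RNA with RIN 10 was made into TruSeq stranded libraries with 8 PCR cycles and sequenced as 100-base paired reads. The submitters' processing notes name, with no roles, featureCounts 2.0.6, STAR 2.7.0a, Trim Galore 0.6.10, Subread, FastQC 0.12.0, SAMtools 1.19.2, DESeq2 1.42.0 and hg38, with annotation, strand setting and treatment of shared reads not given in the sources used here. Reads of overlapping genes may therefore be split or lost.

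Genes were kept by edgeR's filterByExpr, scaled by TMM and tested with edgeR 4.0.16 quasi-likelihood fits (R 4.3.3, limma 3.58.1) on all 6 libraries, with Benjamini-Hochberg adjustment over 23109 genes and a threshold of 0.05. CPM values use TMM-scaled library sizes. SE is the log2 fold change divided by the root of F. Lengths are from GENCODE 29 (hg38), using the transcript with the longest coding sequence. This choice was made after the annotation was seen. Trend removal used natural splines with 5 degrees of freedom on length, span and GC content. Paralogue ratios are log2 ratios of counts plus 0.5. All members are named. Values per library are given for the 2 most positive and 2 most negative log2 fold changes in each role group and for members that missed the threshold, and the 2 largest rises and falls are named from each related list. Members and lists were chosen with earlier results of these data known. The fits were tested on simulated data. Same-numbered replicates did not deviate together, so they were not treated as pairs. Alternatives were other scalings, filters, DESeq2, limma-voom, robust dispersions, a replicate block, trend removal, a larger pseudocount and leaving out each library.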

Additional observations from a re-analysis of the deposited data

How the results depend on the processing

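DESeq2, limma-voom, robust dispersions, size factors by relative log expression, no filter and the replicate block gave the same call for 41 of 41 enzyme genes, with 8 raised and 32 lowered. Same-numbered libraries had correlations of 0.04, 0.02 and 0.01 in their deviations, so they share only a number; with the replicate block 8869 of all genes were raised and 9299 lowered, the median of the enzyme genes was -1.16, their correlation with length -0.61, and the KMT2C to KMT2D difference 1.67. The filter of 1 CPM in 3 libraries left out SMARCB1 and gave 7 raised and 32 lowered.

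Library size alone raised 5673 of all genes, 3 enzyme genes and 26 related genes, and gave a median of -1.69, with KDM5B at -0.057, KDM6B at -0.18 and SMARCD2 at -0.022. Upper quartile scaling gave a median of -0.99. With the length, span and GC trend removed, 18 enzyme genes were raised and 15 lowered, the median was 0.036 and the correlation with length -0.19. The log2 fold changes that turned positive were KMT2C 0.12, SETD1A 0.064, SETD1B 0.33, KDM2A 0.78, KDM5A 0.24, CHD1 0.74, CHD2 0.96, CHD4 0.024, CHD6 0.016, CHD9 0.17, ARID1A 0.48, ARID2 0.0064, EP300 0.47, CREBBP 0.036 and KAT6A 0.53. Using the median transcript length in that removal, an alternative chosen after seeing the data, gave 18 raised and 15 lowered, a median of 0.060 and a correlation of -0.30. It turned KMT2C to 0.32, SETD1A to 0.15, SETD1B to 0.42, KDM1A to 0.075, KDM2A to 0.64, KDM5A to 0.41, CHD1 to 0.85, CHD4 to 0.18, CHD9 to 0.40, ARID1A to 0.35, EP300 to 0.61, CREBBP to 0.060 and KAT6A to 0.56. Among the calls it ended were those of SMARCD2 at 0.018, DOT1L at -0.044 and KDM4A at -0.13. The cause of these changes was not tested.

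Leaving out each library in turn gave 8684 to 9204 raised and 9062 to 9706 lowered over all genes, 7 to 8 raised and 32 lowered enzyme genes, 47 to 51 raised and 64 to 70 lowered related genes, a median of -1.19 to -1.15 and a correlation of -0.62 to -0.57. KDM6B was the gene whose call was lost. SMARCB1 rests on 292 counts, and EHMT2 gave none.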
